A study of Mus musculus with 14 samples.

Results

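The genotype effect shared by both zones of the germinal centre was taken from all 14 of the 14 libraries of the series, 6 from SykY317F and 8 from wild-type (WT) B cells, with the zone as a covariate. Of 9969 genes in the table of unique molecular identifiers (UMIs, tags that count each captured transcript once), 7999 passed a filter on low counts and were tested. Germinal centre (GC) B cells came from popliteal lymph nodes of C57BL/6 mice. The mice were chimeras in which 50% of the cells were WT and 50% carried SykY317F, and lymph nodes were taken 14 days after immunization with NP-KLH, a hapten coupled to a carrier protein. The groups were therefore WT dark zone (DZ, 4 libraries), SykY317F DZ (3), WT light zone (LZ, 4) and SykY317F LZ (3). Both genotypes matured beside each other in immunized chimeric hosts, and how the chimeras were made and which libraries shared a mouse was not given in the sources used here, so p-values measure the spread between these libraries, which may be technical.

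In germinal centres, the dark zone is where B cells proliferate and hypermutate their antibody genes, and the light zone is where they take up antigen through the B cell receptor and compete for help from T cells. Syk is the kinase that relays the signal of the B cell receptor, and the tyrosine replaced by phenylalanine in SykY317F is a docking site for Cbl ubiquitin ligases, which mark Syk and its partners for removal. Bcl6 holds B cells in the germinal centre programme, and division there runs on the E2F-driven genes of S phase and on the genes of mitosis.

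No gene passed the adjusted test for the common genotype effect, but most genes of several lists had lower fitted levels in SykY317F in both zones. The share was largest for DNA replication and S phase genes and for genes of G2 and mitosis. Of 36 tested S phase genes, 34 were lower and 32 were lower in both zones, where 33.8% of all tested genes were. Lower in both zones were also 14 of 21 genes of antibody gene mutation and repair, 11 of 17 dark zone genes and 12 of 23 GC identity genes. With the replicate number as a block the S phase median was -0.42 and that of G2 and mitosis -0.165, in place of -0.55 and -0.57. Among single genes, Icosl, the ligand through which B cells engage ICOS on T cells, was higher by 0.90 ± 0.18 on the log2 scale (fitted SE, 6 against 8 libraries), and Bcl6 was lower, at -0.70 ± 0.18. Neither Icosl (adjusted p = 0.18) nor Bcl6 (adjusted p = 0.304) passed in edgeR's quasi-likelihood test with Benjamini-Hochberg adjustment.

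Libraries differed in depth along with genotype. The 3 SykY317F LZ libraries held 149641 to 379125 UMIs and the SykY317F DZ library 4 held 381954, at 9.37 to 15.8 UMIs per 100 reads, whereas the other 10 libraries held 499443 to 1767898 UMIs at 33.5 to 53.2 per 100 reads. Each of 10 B cell markers on the list was detected in all 4 groups, as the labelled cell type requires. Results are therefore also given without these 4 libraries (which leaves SykY317F DZ libraries 1 and 2 alone), with the log2 UMI total as a covariate, or after thinning every library to the smallest UMI total. In such bulk samples fewer cells of a type and less RNA per cell cannot be told apart.

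Because the S phase genes lead the groups described here, their promoters are shown first. E2F factors bind a short element whose 4 words TTTCGCGC, TTTGGCGC, TTTCCCGC and TTTGCCGC were searched on both strands in RefSeq promoters (GRCm38.p6, 250 bases before to 50 after a gene's start). Of the 36 tested S phase genes, 30 had a promoter in that table and 13 of them (43.3%) held at least 1 word, against 323 of 6228 tested genes with a promoter (5.19%) and 2.26% of all 32851 windows. None of 32 genes of G2 and mitosis and none of 19 genes of the naive and memory list held one. Shown 5′ to 3′ on the gene's strand are the 4 S phase genes with a word and the smallest p of the common effect, and Pcna, the S phase gene with the smallest p of the list, with each word on either strand in capitals. Mcm6, Uhrf1 and Rfc3 are outside the rule for named genes and were chosen after their values were seen.
Mcm7, chr5:138171834-138172133, minus strand, 2 words.
Mcm7 promoter: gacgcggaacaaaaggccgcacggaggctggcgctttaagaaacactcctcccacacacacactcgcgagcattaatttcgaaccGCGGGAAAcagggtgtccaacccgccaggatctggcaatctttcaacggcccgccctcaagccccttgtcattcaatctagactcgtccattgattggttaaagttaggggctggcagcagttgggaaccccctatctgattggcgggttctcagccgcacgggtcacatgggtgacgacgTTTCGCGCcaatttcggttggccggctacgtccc
Mcm6, chr1:128359656-128359955, minus strand, 3 words, of which the first 2 overlap.
Mcm6 promoter: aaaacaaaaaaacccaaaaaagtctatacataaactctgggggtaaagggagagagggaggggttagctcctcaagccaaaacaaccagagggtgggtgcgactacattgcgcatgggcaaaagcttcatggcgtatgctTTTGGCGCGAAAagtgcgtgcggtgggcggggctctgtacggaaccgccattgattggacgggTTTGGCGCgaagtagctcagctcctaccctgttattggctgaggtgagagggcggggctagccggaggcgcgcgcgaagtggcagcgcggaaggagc
Uhrf1, chr17:56304063-56304362, plus strand, 1 word.
Uhrf1 promoter: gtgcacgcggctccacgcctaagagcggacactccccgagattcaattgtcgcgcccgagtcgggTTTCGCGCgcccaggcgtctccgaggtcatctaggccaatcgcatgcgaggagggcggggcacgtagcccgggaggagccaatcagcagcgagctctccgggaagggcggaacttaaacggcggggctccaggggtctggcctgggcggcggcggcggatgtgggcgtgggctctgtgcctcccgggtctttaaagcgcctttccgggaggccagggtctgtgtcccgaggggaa
Rfc3, chr5:151651159-151651458, minus strand, 2 words.
Rfc3 promoter: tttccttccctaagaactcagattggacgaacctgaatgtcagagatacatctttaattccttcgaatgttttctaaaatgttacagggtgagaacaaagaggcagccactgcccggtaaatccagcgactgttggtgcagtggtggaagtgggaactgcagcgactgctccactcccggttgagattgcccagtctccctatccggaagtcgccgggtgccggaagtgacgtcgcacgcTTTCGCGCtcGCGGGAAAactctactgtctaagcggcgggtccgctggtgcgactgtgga
Pcna, chr2:132253131-132253430, minus strand, no match to these words.
Pcna promoter: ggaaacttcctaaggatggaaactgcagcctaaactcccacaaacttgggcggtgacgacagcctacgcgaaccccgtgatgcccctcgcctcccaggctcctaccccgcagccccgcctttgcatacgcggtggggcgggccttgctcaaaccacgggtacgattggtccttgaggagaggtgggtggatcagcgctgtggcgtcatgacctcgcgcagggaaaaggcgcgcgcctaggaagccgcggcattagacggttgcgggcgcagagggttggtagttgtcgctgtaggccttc
Mcm7 and Uhrf1 each have a further window in the table without a match. A match is a description of these letters, not a site or a cause.

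The S phase genes were compared library by library as the sum of their levels in CPM (UMIs scaled to one common library total after TMM normalization). In the DZ the 4 WT libraries summed to 4867, 5292, 4204 and 5684 and the 3 SykY317F libraries to 4084, 3281 and 3704. In the LZ the WT libraries summed to 4314, 4009, 6044 and 4369 and the SykY317F libraries to 3746, 2981 and 2904. In both zones every SykY317F library lay below every WT library, with group means at 0.736 (DZ) and 0.685 (LZ) of the WT mean. Of 38 lists summed in this way, 2 separated the genotypes in both zones, both downward: S phase, and Myc and nucleolar growth genes, whose means stood at 0.902 and 0.871 of WT. The S phase sums also separated with DESeq2 size factors and with library size alone, but overlapped in both zones in the deposited read counts (ratios of means 0.769 and 0.731). The growth gene sums did not separate in both zones under any of those 3 alternatives.

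**Figure D1:**
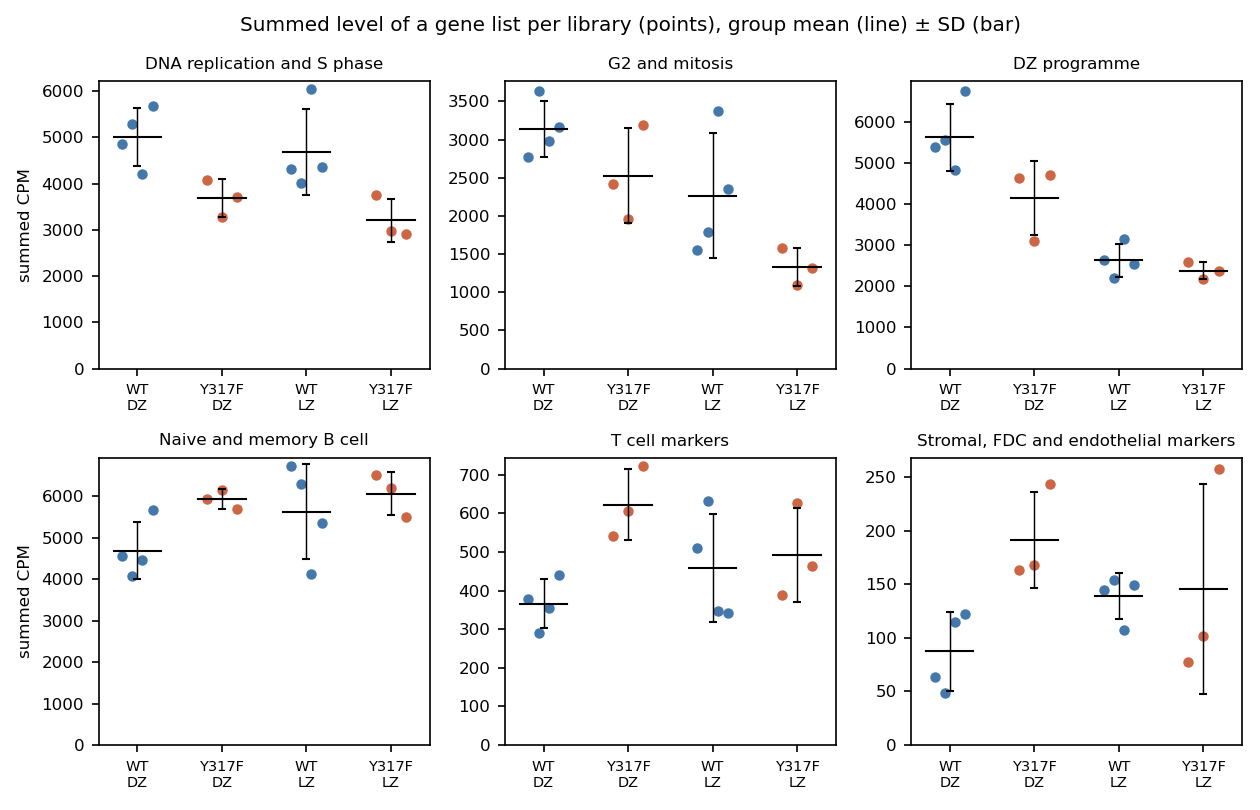
Summed CPM of 6 gene lists in each library (points, WT blue, SykY317F orange), with the group mean (line) and SD (bar); the x axis gives genotype and zone. The S phase sums of the 6 SykY317F libraries lie between 2904 and 4084, below those of the WT libraries of the same zone, whereas T cell and stromal marker sums are higher in SykY317F in the DZ and overlap in the LZ.

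Across the 36 tested of 40 S phase genes, the median common log2 fold change (SykY317F over WT) was -0.55, with -0.44 in the DZ and -0.69 in the LZ, against -0.04 for all 7999 tested genes. An unadjusted p under 0.05 of the common effect was reached by 21 of them, all lower, where 355 of all tested genes (4.44%) were lower and 311 (3.89%) higher at that p. Of all tested genes, 3641 (45.5%) were higher and 4358 lower at any p, and counts for other lists are to be read against that share. The balance of all genes at p under 0.05 differed in the settings for depth. With the UMI total as a covariate 231 were higher and 132 lower, and after thinning 46 and 4 of 3608 tested genes. Without the 4 shallow libraries 261 were higher and 78 lower, but that fit compares the genotypes in the DZ alone. With all libraries the DZ contrast had 226 higher and 79 lower, and the LZ contrast 291 and 494. Lower in both zones at any p were 32 of the 36 (33.8% of all tested genes were), and higher in both were 2 (24.8% of all). Without the 4 libraries under 400000 UMIs, 35 of 37 were lower with a median of -0.40, but only 1 had p under 0.05. With the UMI total as a covariate 35 of 36 were lower (median -0.54, 14 at p under 0.05), and after thinning 23 of 26 were (median -0.50, 0 at p under 0.05).

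Pcna, the sliding clamp of the replication fork (chr2:132249162-132253314 on GRCm38), had 211, 454, 414 and 425 CPM in WT DZ against 253, 211 and 213 in SykY317F DZ. In the LZ it had 211, 214, 401 and 353 CPM in WT and 137, 96.0 and 263 in SykY317F. Pcna was thus lower on average in both zones, with overlap in each, because WT DZ library 2 and WT LZ libraries 1 and 2 were low. Its common log2 fold change was -0.79 ± 0.23 (SE), with unadjusted p of 0.0306 in the DZ and 0.0224 in the LZ.

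Gins1, a subunit of the GINS complex of the replicative helicase (chr2:150905400-150931280), separated the genotypes in both zones. It had 24.6, 44.0, 27.6 and 30.8 CPM in WT DZ and 21.8, 16.8 and 5.53 in SykY317F DZ. In the LZ it had 16.5, 26.7, 28.8 and 24.2 CPM in WT and 11.9, 0 and 0 in SykY317F, in libraries where 3 UMIs amount to 7.91, 14.9 and 20 CPM. Mcm7, a subunit of the same helicase's MCM ring (chr5:138164583-138172422, overlapping Ap4m1 and Cops6), had 347, 321, 248 and 443 CPM in WT DZ against 248, 198 and 265. Its LZ levels were 273, 247, 363 and 277 CPM in WT and 212, 147 and 220 in SykY317F, so Mcm7 separated in the LZ and overlapped in the DZ. Pcna, Gins1 and Mcm7 were the 3 S phase genes with p under 0.05 in the same direction in each zone. Rrm2, the small subunit of ribonucleotide reductase, had a common log2 fold change of -0.99 ± 0.31 with p of 0.0241 in the DZ and 0.0672 in the LZ. Only Slbp and Tk1 had positive values, 0.62 ± 0.62 and 0.07 ± 0.21 (named after their values were seen).

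Of 37 tested of 39 G2 and mitosis genes, 34 were lower in both zones and 2 higher in both. The median log2 fold change was -0.57, with -0.36 in the DZ and -0.85 in the LZ (-0.82 with the 3 genes at 0 UMIs in a LZ group set to their bound against 3 UMIs over the group). At p under 0.05 of the common effect 14 were lower and 0 higher, but none met that p in both zones. Top2a, the topoisomerase that untangles replicated DNA, had a common value of -0.84 ± 0.26, and its LZ levels of 82.3, 128, 290 and 216 CPM in WT and 74.6, 56.5 and 75.3 in SykY317F did not overlap. Kif23 (a kinesin of the midzone, -0.86 ± 0.29), Plk1 (the mitotic polo kinase, -0.83 ± 0.28) and Ndc80 (an outer kinetochore subunit, -0.72 ± 0.26) likewise separated in the LZ and overlapped in the DZ. The sums of the list overlapped in both zones: 2777 to 3634 CPM in WT DZ against 1964 to 3196, and 1548 to 3380 in WT LZ against 1095 to 1582. Without the 4 libraries under 400000 UMIs 36 of 38 were lower with a median of -0.50, and 3 had p under 0.05. Without SykY317F LZ library 2 or SykY317F DZ library 2 the number with p under 0.05 was 5 and 7, respectively, in place of 14. With the UMI total as a covariate 35 of 37 were lower (10 at p under 0.05), and after thinning 18 of 19 were (1 at p under 0.05). With the replicate number as a block 31 of 37 were lower with a median of -0.165, and 0 had p under 0.05.

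Across all genes, edgeR's quasi-likelihood test with zone and genotype called 0 of 7999 genes (0%) at an adjusted p under 0.05, with 666 at an unadjusted p under 0.05 and a smallest adjusted p of 0.18. On the same counts DESeq2's Wald test called 28 genes, 21 higher and 7 lower, limma voom with sample quality weights called 5, and limma voom with duplicateCorrelation called 0. DESeq2 and voom shared 3 calls: Icosl, Akna and Rps3. Icosl had an adjusted p of 0.000774 in DESeq2 and 0.0230 in voom. By edgeR the zones on their own gave 0 genes in the DZ (305 at p under 0.05, 3.81%; DESeq2 2, voom 0) and 0 in the LZ (785 at p under 0.05, 9.81%; DESeq2 43, voom 0). The test of a difference between the zones' genotype effects gave 0 genes in each of the 3 tools, with 384 at p under 0.05 (4.8%) in edgeR. The fits were imprecise: the median SE of a log2 fold change was 0.376 in the DZ, 0.449 in the LZ and 0.289 for the common effect.

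The DZ and LZ contrasts share no library, but whether they share mice was not given. The fitted effects fell on the same side of 0 in both zones for 58.6% of genes, and Pearson's r of the effects across genes, which are not independent replicates, was 0.189 (Spearman's rho 0.214). Both were higher in more abundant genes: from the least to the most abundant of 4 equal sets of genes the same-side share went from 55.2% to 64.0% and r from 0.17 to 0.362. Of the 305 genes with p under 0.05 in the DZ, 39 (12.8%) had p under 0.05 in the LZ in the same direction and 6 (1.97%) in the opposite one (0.075% of all tested genes). Those 39, which are 4.97% of the 785 LZ genes, comprise 18 higher (0.225% of all tested genes) and 21 lower (0.263%). By direction, 26.6% of the 79 genes lower in the DZ were lower in the LZ at that p, where 6.18% of all genes were, and 7.96% of the 226 higher genes were higher, where 3.64% of all genes were. All 39 had a common p under 0.05, but that fit uses the same libraries, so their selection made this nearly certain. In the most abundant of the 4 sets 17 genes agreed and 0 were opposite, in the least abundant 4 and 4.

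The count of 39 depended on single libraries: it was 21 without SykY317F DZ library 4 and 24 without WT DZ library 3. Thinning every library to the UMI total of the shallowest left 5 (median of 5 draws), and by direction the medians were 5 higher and 1 lower, against 18 and 21 at full depth. With the replicate number as a block 17 higher and 4 lower genes agreed, which held 10 of the 18 and 1 of the 21. Voom gave 92, of which 62 were higher. The authors' deposited table of their own comparisons has 48 genes with p under 0.05 in both zones in the same direction, 29 higher and 19 lower, and 7 in opposite directions. Of the 39 genes found here 36 are among those 48. At an adjusted p under 0.05 that table has 18 genes in the DZ, 25 in the LZ and 0 in both.

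**Figure D2:**
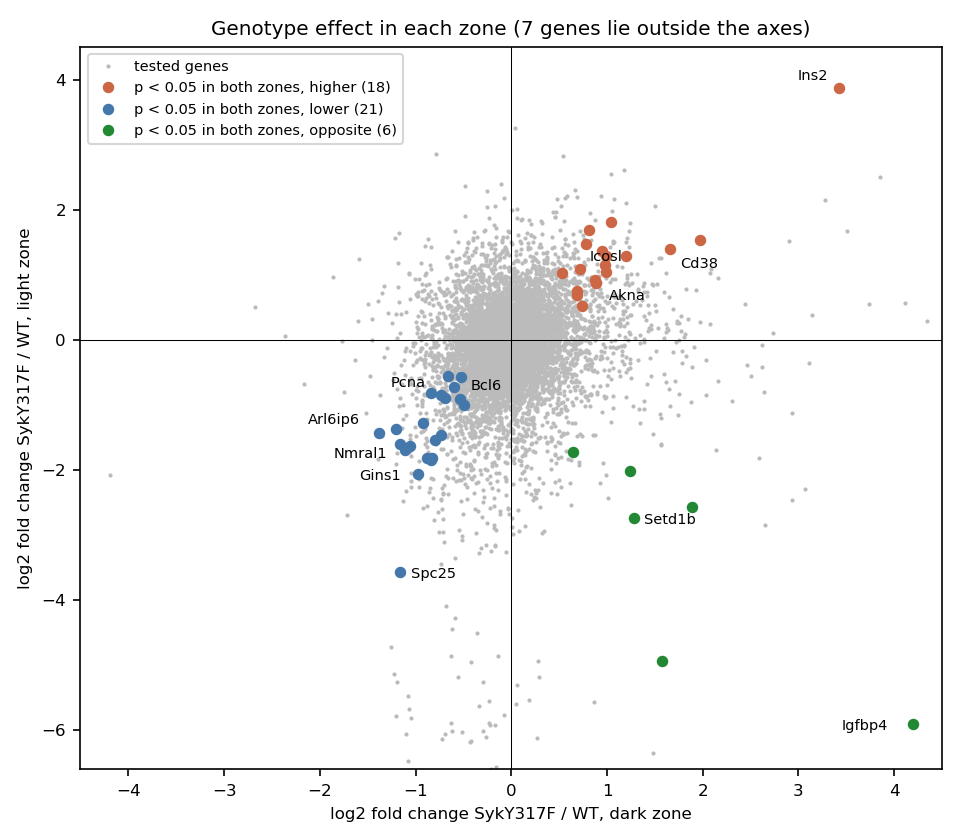
Fitted log2 fold change of SykY317F over WT in the dark zone (x axis) and the light zone (y axis) for the tested genes, with genes at an unadjusted p under 0.05 in both zones coloured by direction. The 18 genes higher in both and the 21 lower in both stand in opposite corners, and 6 genes such as Setd1b and Igfbp4 (at 0 UMIs in SykY317F LZ, so that its position is no bound) have opposite signs; 7 genes lie outside the axes.

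Another description, which uses no p-value, asks whether every SykY317F library lies beyond every WT library in both zones. By this measure 17 genes were higher (0.213% of those tested), 22 lower (0.275%) and 10 opposite (0.125%). The overlap with the 39 genes was 13 genes, 5 higher (Icosl, Akna, Ins2, Ap4b1 and Clec2i) and 8 lower, among them Arl6ip6, Spc25, Nlrx1, Ttll5, Hdac8, Gins1 and M1ap. Of these, Ins2 passed the filter on low counts only through SykY317F libraries. Hdac8 and M1ap are outside the rule for named genes and were named after their values were seen.

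Icosl (chr10:78069302-78083913) had 110, 80.5, 94.3 and 120 CPM in WT DZ and 207, 135 and 155 in SykY317F DZ. In the LZ it had 174, 139, 148 and 120 CPM in WT and 412, 282 and 213 in SykY317F. All 6 SykY317F libraries exceeded the WT libraries of their zone, the log2 fold change was 0.72 in the DZ and 1.08 in the LZ, and the common effect stayed between 0.73 and 1.005 over 28 alternative settings.

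Akna, an AT-hook protein (chr4:63367125-63403354, overlapping its antisense gene Aknaos), had 113, 71.6, 80.1 and 112 CPM in WT DZ against 182, 117 and 229. In the LZ it had 152, 141, 150 and 99.3 CPM in WT against 191, 294 and 263. Akna separated in both zones with nearly equal log2 fold changes, 0.89 in the DZ and 0.87 in the LZ. Ap4b1, the beta subunit of the AP-4 sorting adaptor (chr3:103809520-103822025), had 17.9 to 26.7 CPM in WT DZ against 30.3 to 52.5, and 24.2 to 30.7 in WT LZ against 32.8, 96.0 and 150. Clec2i, a C-type lectin-like membrane protein (chr6:128887588-128898167, overlapping BC035044), had 13.8 to 36.2 CPM in WT DZ against 52.3 to 70.0, and 7.68 to 61.8 in WT LZ against 73.4 to 138.

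The other higher genes among the leading ones carried more reservations. Ins2, an insulin gene (chr7:142678656-142743381), rested on few molecules, with 2 UMIs over the WT DZ libraries and 16 over the SykY317F DZ libraries. That is a ratio of 12.0 with an exact binomial 95% interval of 2.82 to 107 for counting error only. Ins2 passed the filter on low counts only through SykY317F DZ library 4 and LZ libraries 2 and 4, with 4, 3 and 7 UMIs. Its place among the higher genes therefore depended in part on the group where it was high. Psme2b (common 0.89 ± 0.19) is a near-identical copy of Psme2, a subunit of the proteasome activator, so its reads cannot be placed with certainty. UMIs assigned to Mir703 (0.78 ± 0.18) and Mir682 (0.72 ± 0.20) are transcripts captured by poly(A) at these loci and do not measure the mature miRNAs. In read counts the common values of Psme2b, Mir703 and Mir682 were 0.23, 0.01 and 0.30. Fam3a (1.14 ± 0.29), Trim12a (0.69 ± 0.19, one of a cluster of related Trim genes) and Myl12b (0.63 ± 0.16, a regulatory light chain of myosin) agreed in both zones. So did Matk, a kinase that phosphorylates the inhibitory tyrosine of Src family kinases (1.07 ± 0.28). Lgals3, which encodes galectin 3 (1.06 ± 0.27), had p of 0.00289 in the DZ and 0.0527 in the LZ.

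On the lower side, Nmral1, an NADPH-binding protein (chr16:4710059-4719356), had 95.8, 122, 67.6 and 185 CPM in WT DZ against 60.3, 37.0 and 71.9. In the LZ it had 76.8, 58.3, 144 and 95.3 CPM in WT against 26.9, 33.9 and 25.1. It separated in the LZ, with a common log2 fold change of -1.32 ± 0.28.

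Arl6ip6 (chr2:53191726-53219220) had 19.4, 33.6, 34.7 and 42.7 CPM in WT DZ against 7.99, 14.8 and 16.6, and 18.6, 18.8, 26.9 and 32.3 in WT LZ against 8.95, 5.64 and 12.5. Its log2 fold changes were -1.39 in the DZ and -1.43 in the LZ, without overlap in either. Spc25, a kinetochore subunit of the Ndc80 complex (chr2:69193895-69206194), had 18.1, 25.4, 22.2 and 32.7 CPM in WT DZ against 8.71, 14.8 and 8.29. In the LZ a total of 81 UMIs in WT stood against 1 in SykY317F. That is a WT to SykY317F ratio of 13 with an exact binomial 95% interval of 2.27 to 521, for counting error only. Ttll5 (a tubulin-modifying enzyme that overlaps Tgfb3, common -1.04 ± 0.30) and Nlrx1 (a mitochondrial NLR protein, -1.11 ± 0.32) also separated in both zones. Ppp4r2 (a regulatory subunit of protein phosphatase 4, -1.24 ± 0.32), Kif22 (a chromosome-binding kinesin, -0.77 ± 0.21) and Lmnb1 (lamin B1, -0.82 ± 0.23) agreed in both zones with overlap in at least 1. Rps4l, a transcribed pseudogene that overlaps Tmtc1, had 8.90 to 52.1 CPM in WT DZ and 0 to 2.69 in SykY317F DZ, and its LZ p was 0.105. Rps4l passed the filter on low counts only through WT libraries, with 4 UMIs over SykY317F DZ and 2 over SykY317F LZ. Its place among the lower genes therefore depended in part on the group where it was high. Sema7a, a GPI-anchored semaphorin, had -0.64 ± 0.18 with p of 0.0668 in the DZ and 0.00446 in the LZ.

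**Figure D3:**
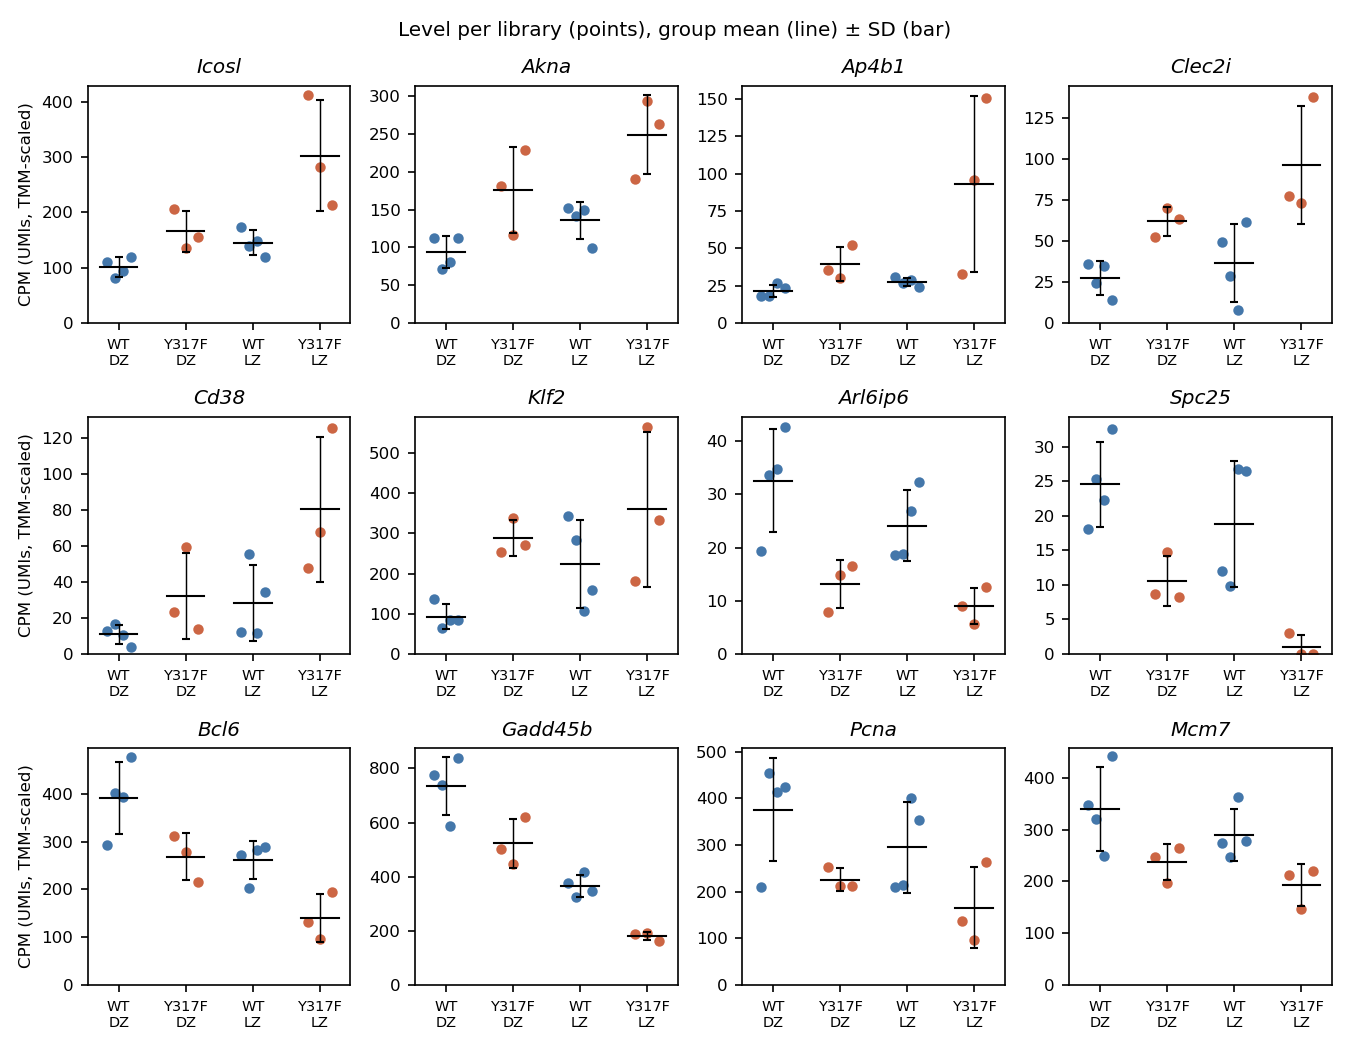
CPM per library (points, WT blue, SykY317F orange) of 12 genes by genotype and zone, with group mean (line) and SD (bar). Icosl, Akna, Ap4b1 and Clec2i are higher and Arl6ip6 and Spc25 lower in SykY317F in both zones without overlap; Cd38 and Pcna overlap in both.

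The germinal centre programme was examined as a group next. Of 23 tested identity genes 16 were lower and 12 lower in both zones (4358 of all 7999 tested genes were lower), with a median of -0.26 (DZ -0.31, LZ -0.18) and 3 lower and 0 higher at p under 0.05. Bcl6 (chr16:23965052-23988852) had 292, 401, 394 and 477 CPM in WT DZ against 312, 279 and 216, and 272, 203, 282 and 288 in WT LZ against 131, 96.0 and 194. All SykY317F LZ libraries lay below all WT LZ libraries, and in the DZ 1 SykY317F library exceeded WT library 2. Plxnb2, a semaphorin receptor (-0.65 ± 0.21), and S1pr2, the receptor that confines GC B cells (-0.36 ± 0.17), separated in the DZ and overlapped in the LZ. S1pr2 was not among the 3 lower genes, with a common p of 0.0519 in edgeR's test.

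Of 17 tested genes of the dark zone programme 15 were lower, with a median of -0.33 (DZ -0.38, LZ -0.24), and 3 lower and 1 higher had p under 0.05. The sums separated in the DZ (4813 to 6746 CPM in WT, 3108 to 4702 in SykY317F) and overlapped in the LZ. The DZ sums also separated with DESeq2 size factors and with library size alone, but overlapped in read counts (5240 to 8020 in WT, 3160 to 5590 in SykY317F). Without SykY317F DZ library 2 the list median was -0.22, with 1 lower and 1 higher at p under 0.05. Over 28 settings the median ranged from -0.546 to -0.22. Gadd45b, a stress-induced partner of cell cycle kinases (chr10:80930073-80932204), had 774, 737, 587 and 840 CPM in WT DZ against 501, 447 and 622. Its LZ levels were 375, 324, 418 and 348 in WT and 188, 192 and 163 in SykY317F, a common log2 fold change of -0.73 ± 0.16. Hmces, a protein that shields abasic sites, had -0.50 ± 0.22 and p of 0.119 in the DZ. The exception was Cxcr4, the chemokine receptor that draws GC B cells to the dark zone (chr1:128588199-128592293), which was higher by 0.87 ± 0.25. It had 325, 139, 149 and 190 CPM in WT DZ against 256, 236 and 337, and 159, 170, 96.0 and 93.5 in WT LZ against 245, 486 and 245. Cxcr4 separated in the LZ and overlapped in the DZ because of WT DZ library 2.

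Of 21 tested genes of antibody gene mutation and DNA repair 16 were lower and 14 lower in both zones, with a median of -0.33 and 5 lower and 0 higher at p under 0.05. They included Lig1, the replicative DNA ligase (-0.52 ± 0.21), and Parp1, a sensor of DNA breaks (-0.38 ± 0.16). Lig1, Fen1, Ung and Pold1 are also on the S phase list, and Hmces and Neil1, among others, are on the dark zone list. Tcf3 and Mybl1 are on both the identity and the dark zone list, so these lists are not separate counts.

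**Figure D4:**
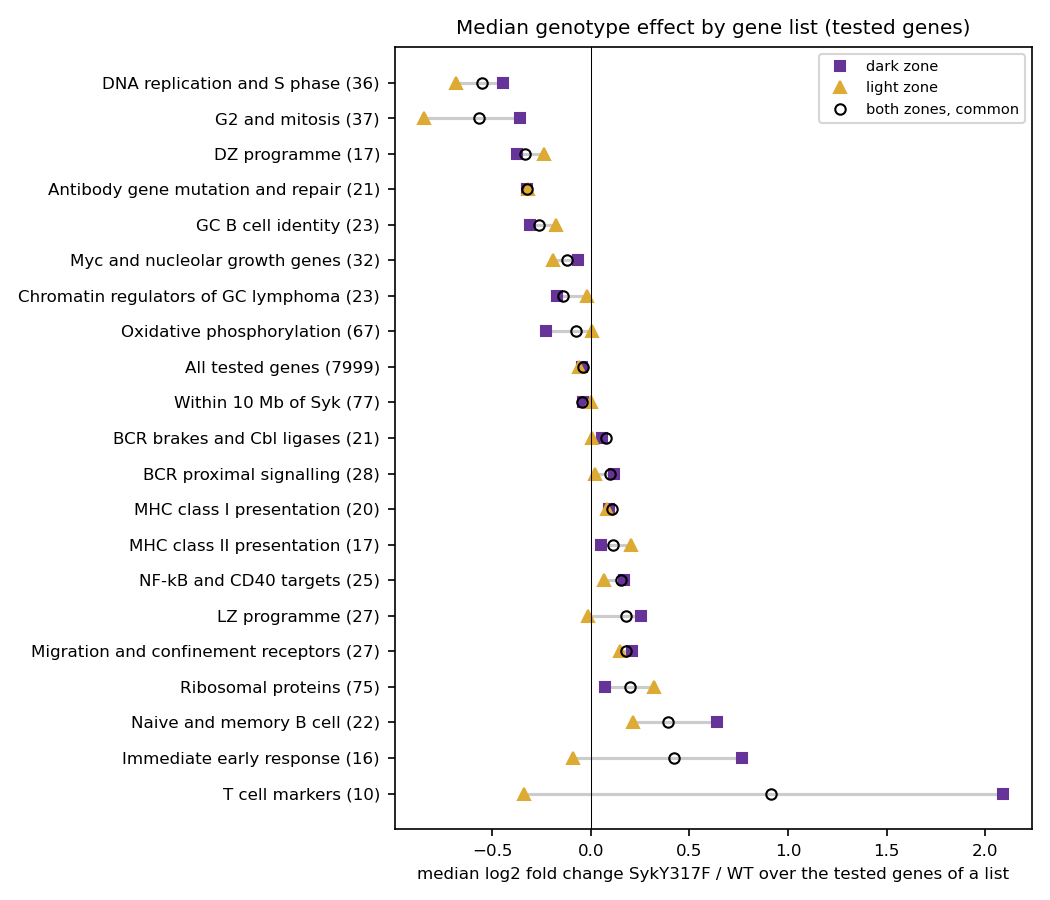
Median log2 fold change of SykY317F over WT for the tested genes of each list (number in parentheses), in the dark zone (squares), the light zone (triangles) and both zones in common (circles). S phase and G2 and mitosis stand at -0.55 and -0.57 in common and below 0 in each zone, whereas immediate early genes and T cell markers are above 0 in the DZ and below 0 in the LZ.

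Genes of naive and memory B cells stood higher. Of 22 tested, 18 were higher and 12 higher in both zones, with a median of 0.39 (DZ 0.64, LZ 0.21) and 8 higher and 0 lower at p under 0.05. Without SykY317F DZ library 2 the median was 0.27 and 2 of 23 had p under 0.05, and with the replicate number as a block 3 had. Over 28 settings that number ranged from 2 to 12 and the median from 0.255 to 0.73. Cd38, an NAD-consuming surface enzyme that mouse GC B cells carry at low level (chr5:43868553-43912375), had 12.9, 16.4, 10.7 and 3.77 CPM in WT DZ against 23.2, 59.2 and 13.8. In the LZ it had 12.1, 55.4, 11.5 and 34.6 CPM in WT against 47.8, 67.7 and 125. It was the gene of this list with p under 0.05 in both zones (common 1.53 ± 0.41), although the groups overlapped in each. Klf2, a transcription factor of resting lymphocytes (chr8:72319033-72321656), had 137, 65.6, 84.5 and 83.5 CPM in WT DZ against 253, 338 and 271, and 343, 284, 108 and 160 in WT LZ against 182, 564 and 332. It separated in the DZ and overlapped in the LZ. Bcl2, which blocks apoptosis, had a log2 fold change of 2.07 in the DZ and 0.24 in the LZ, and Gpr183, the oxysterol receptor EBI2, 1.55 and 1.25. Without SykY317F DZ library 2 the common values of Bcl2 and Gpr183 were 0.80 and 0.96, in place of 1.25 and 1.41.

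Markers of other cells moved with this group in the DZ. The T cell markers, of which 10 were tested, summed to 289 to 440 CPM in WT DZ and 542 to 721 in SykY317F DZ, without overlap, and to 342 to 631 in WT LZ and 388 to 627 in SykY317F LZ. Of them 9 were higher in common, 3 were higher in both zones and 1 was lower in both, with medians of 2.09 in the DZ and -0.34 in the LZ. Stromal markers summed to 48.5 to 122 CPM in WT DZ and 163 to 243 in SykY317F DZ, and overlapped in the LZ. Pecam1, reported below among the receptor brakes, is also on the stromal list. Its mean was 42.4 CPM of a list mean of 87.3 in WT DZ, and 67.6 of 191 in SykY317F DZ. NK cell markers, represented by Nkg7 among those in the table, summed to at most 1.29 CPM in WT DZ and to 2.18 to 16.6 in SykY317F DZ. Of 11 tested myeloid markers 9 were higher in common, 11 were higher in the DZ (median 0.45) and 3 in the LZ (median -0.39). Their sums overlapped in both zones (1120 to 2310 CPM in WT DZ, 1330 to 2690 in SykY317F DZ, 1130 to 2150 and 960 to 1770 in the LZ). Apoe weighs most in these sums, with 6276 UMIs over the WT DZ libraries, where Lyz2, the next, had 564. Of 4 tested dendritic cell markers 3 were lower, 0 of 4 plasma cell surface markers were higher, and erythroid and platelet markers summed to at most 5.38 CPM. The part of these cells in the higher naive and memory, quiescence and migration genes was not tested.

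Quiescence and Gimap genes were higher for 12 of 15, with a median of 0.20 (DZ 0.38, LZ 0.003) and 2 higher and 0 lower at p under 0.05. This rested on SykY317F DZ library 2, without which the median was 0.001. Gimap3, a GTPase of lymphocyte survival, had 0.73 ± 0.21 and separated in the DZ. Pdcd4 (0.66 ± 0.43, and 0.11 without that library) and Gimap5 (0.30 ± 0.21) overlapped in both zones. Of 27 tested migration and confinement receptors 19 were higher, with a median of 0.18 and 7 higher and 0 lower at p under 0.05, among them Klf2, Cxcr4, Gpr183 and Itgb7, an integrin chain of gut homing (0.67 ± 0.24). Klf2 is on the naive and memory, quiescence and migration lists, and Gpr183 on the first and last, so these too are not separate counts. Of 27 light zone genes 18 were higher, with a median of 0.26 in the DZ and -0.01 in the LZ. Cd83, a light zone marker (0.45 ± 0.18), separated in the LZ, with 406 to 729 CPM in WT and 779 to 960 in SykY317F. Il10ra, the interleukin 10 receptor chain (0.85 ± 0.29), separated in the DZ, and Nfkbie, an inhibitor of NF-kB (0.36 ± 0.16), and Fcer2a, the low-affinity IgE receptor CD23 (0.39 ± 0.18), had p of 0.0809 and 0.0690 in the DZ and higher p in the LZ. Cd86, a costimulatory ligand, had -0.09 ± 0.41, with opposite signs in the zones (DZ -0.67, LZ 0.52).

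Syk itself did not differ between the genotypes beyond the spread. It had 593, 477, 467 and 529 CPM in WT DZ against 626, 508 and 506, and 353, 502, 422 and 410 in WT LZ against 430, 429 and 383. The groups overlapped in both zones and the common log2 fold change was 0.03 ± 0.14, with a sign that turned under library size scaling (-0.003) and in read counts (-0.17). A count per gene does not show the SykY317F exchange, so it does not check the genotype labels. The ubiquitin ligases Cbl and Cblb had common values of -0.78 ± 0.45 and -0.90 ± 0.81 and overlapped in both zones, and Cblb had 2 UMIs over the SykY317F LZ libraries.

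Of 28 genes of proximal B cell receptor signalling 19 were higher (median 0.10, and -0.01 in read counts) with 0 higher and 1 lower at p under 0.05. That 1 was the adaptor Grb2 (-0.37 ± 0.16), followed by the adaptor Blnk (-0.34 ± 0.17, and 0.001 in read counts). Of 21 tested brakes of the receptor, Cbl ligases included, 13 were higher (median 0.08) and 4 had p under 0.05, all higher. These were the inhibitory receptors Pirb (0.87 ± 0.25), Ceacam1 (1.11 ± 0.34) and Pecam1 (0.57 ± 0.25) and the adaptor Sla (0.87 ± 0.40, and 0.38 without SykY317F DZ library 2). Their LZ p ranged from 0.0869 to 0.328, and Pirb and Ceacam1 separated in the DZ. Pecam1 was 0.38 without SykY317F LZ library 4.

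Immediate early genes, which respond within minutes to receptor signals and also to handling of cells, did not share a direction between the zones. All 16 tested were higher in the DZ (median 0.77) but 8 of 16 were lower in the LZ (median -0.09). Ier2, the 1 gene with a common p under 0.05, had 29.8 to 80.2 CPM in WT DZ against 96.6 to 280, without overlap, and 72.9 to 232 in WT LZ against 71.6 to 316. Without SykY317F DZ library 2 its common value fell from 1.05 to 0.59 and the median of the list was -0.17.

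Genes of antigen presentation are set beside all tested genes, of which 45.5% were higher. Of 17 tested MHC class II genes 12 were higher (median 0.11) and of 20 MHC class I genes 13 (median 0.11), with sums that separated upward in the LZ and overlapped in the DZ (with library size alone neither sum separated in the LZ, and in read counts the class II sums overlapped there, at 46600 to 67500 CPM in WT and 64100 to 81600 in SykY317F). H2-Q4 (0.90 ± 0.25), a class I gene with near-identical relatives, separated in both zones, with 10.7 to 20.1 CPM in WT DZ against 24.9 to 41.5 and 23.1 to 28.8 in WT LZ against 39.5 to 43.9. H2-T23 (0.80 ± 0.23, another class I gene), Nlrc5, the class I transactivator (0.53 ± 0.21), and Cd74, the invariant chain (0.55 ± 0.23), separated in the LZ alone. H2-DMb2, a chain of the peptide editor H2-DM, had 0.68 ± 0.31 (0.45 without SykY317F LZ library 2) and overlapped in both zones. Of 75 ribosomal protein genes, many with near-identical pseudogenes, 60 were higher (median 0.20, DZ 0.07, LZ 0.32), with 13 higher and 2 lower at p under 0.05. Higher in both zones were 39 of them (24.8% of all tested genes were), and their sums overlapped in both zones. Rps3 (1.18 ± 0.34) and Rpl6 (0.78 ± 0.21) separated in the LZ and overlapped in the DZ, where WT DZ library 5 was the highest WT library for both.

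Smaller groups held single genes near the top. In the JAK-STAT list 16 of 23 were higher (median 0.18, and -0.01 in read counts), 3 of them and Bcl6 on the lower side at p under 0.05, and Jak1 (0.70 ± 0.27) and Ifngr2 (0.49 ± 0.22), which carry the interferon gamma signal, were among the former. Of 25 apoptosis genes 13 were higher and 12 lower, and Bmf, which opposes Bcl2 (-0.60 ± 0.21), was lower at p under 0.05 and separated in both zones. Of 23 chromatin regulators 17 were lower, including Eed (-0.98 ± 0.32) and Suz12 (-0.50 ± 0.24), subunits of the PRC2 complex, while the histone demethylases Kdm6b (1.05 ± 0.48) and Kdm1a (0.60 ± 0.25) were higher. Kdm6b rested on SykY317F DZ library 2, with 105 CPM where the other SykY317F DZ libraries had 15.3 and 27.6, and was 0.22, with p no longer under 0.05, without it. Kdm1a was 0.37 without SykY317F LZ library 4. Of 25 NF-kB and CD40 targets 16 were higher, 2 at p under 0.05, Nfkbie and Nfkbid (0.77 ± 0.35). Nfkbid, too, was high in SykY317F DZ library 2 (227 CPM against 48.6 and 63.6), and was 0.21, with p no longer under 0.05, without that library. The median of this list was then 0.05. Of 77 tested genes within 10 Mb of Syk on chromosome 13, 36 were higher and 41 lower (median -0.05), with 3 on each side at p under 0.05. Mcur1 (0.65 ± 0.24, separated in both zones) and Mxd3 (-0.59 ± 0.22) led them.

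Where the zones differed, the values did not reach the adjusted threshold (smallest adjusted p of the difference 0.535). Ndufs4, a subunit of respiratory complex I, was lower in the DZ (-0.36) and higher in the LZ (1.42), where 25.2 to 57.7 CPM in WT stood against 87.8 to 113. E2f3, a member of the E2F family (DZ -0.83, LZ 1.42), and Cks2, a partner of cell cycle kinases (DZ -0.59, LZ 1.67), also separated upward in the LZ. Nr3c1, the glucocorticoid receptor, had a DZ value of -0.07 and an LZ value of -1.88, with 65.3 to 88.0 CPM in WT LZ and 16.9 to 26.9 in SykY317F LZ. Herc1, a large HECT-domain protein (DZ 0.64, LZ -1.73), separated upward in the DZ and downward in the LZ. Setd1b, a histone methyltransferase, did so too, with 129 UMIs in WT LZ against 3 in SykY317F LZ, all in library 1. That is a WT to SykY317F ratio of 6.92 (exact binomial 95% interval 2.31 to 34.0, for counting error only).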

How the data were processed

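RNA of sorted GC B cells was captured on oligo(dT) beads and sequenced with a variant of MARS-seq, per the labels' protocols. Tools listed in the submitters' processing notes, without role or order, are STAR 2.4.2a, HTSeq, cutadapt, DESeq and DESeq2, with mm10 as build. The authors deposited UMI counts and read counts per gene symbol, the normalised signal (counts over size factors), regularised log2 values, log2 fold changes and p-values. The raw UMI counts were used here, read counts as an alternative, and the authors' p-values and fold changes for the counts credited to their deposited table. UMI counting removes PCR copies, which read counts keep.

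Genes were filtered with filterByExpr over the 4 groups (7999 genes holding 99.3% of UMIs), scaled by TMM and fitted with edgeR 4.0.16's robust quasi-likelihood test in R 4.3.3, with zone and genotype for the common effect and with 4 group means for each zone and their difference. The SE is the log2 fold change over the root of F. P-values were adjusted by Benjamini-Hochberg across the 7999 genes of each contrast (threshold 0.05). A gene agreed in both zones where its unadjusted p was under 0.05 in each with the same sign, and "separated" means that the groups' CPM ranges did not overlap. These counts carry no correction for multiple tests. DESeq2 1.42.0 and limma 3.58.1 served as alternatives. The steps were tested on simulated counts. Positions are GRCm38 (GENCODE), for 87 of 88 genes named by rule.

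Members, lists and the rule for named genes were chosen with earlier results of these data known. The rule takes 10 genes per direction with the smallest common p (up to 15 if past the threshold), 10 per direction that agree, 5 that separate in both zones, 3 per direction that differ between zones, up to 4 per list described, and Syk, Cbl, Cblb, Cxcr4, Cd83 and Cd86. Genes with accession-like, Gm, Rik or -ps symbols were counted without being named. Limits for 0 to 3 UMIs use 3 UMIs over the group and exact binomial intervals. Some genes that the rule names are not reported here.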

Additional observations from a re-analysis of the deposited data

Results flagged for a closer look

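In groups of 4 libraries, the highest or lowest library was compared with the rest by Dixon's test at its 95% critical value. Of 96 sets tested 8 stood out, and chance marks about 1 in 20 sets. That rate does not hold where the other libraries are all at 0, since any value above 0 is then marked. This was so for Ins2 and for erythroid and platelet markers. Pcna in WT DZ library 2 was 211 CPM where the other WT DZ libraries had 414 to 454. Cblb in WT LZ library 5 was 21.4 CPM where the others had 1.1 to 2.97. Ins2 was 1.26 CPM in WT DZ library 5 and 3.46 CPM in WT LZ library 5, and 0 in the other WT libraries. The summed B cell markers were 14900 CPM in WT DZ library 5 where the others had 9970 to 10600. Summed NK cell markers were 12.8 CPM in WT LZ library 2, where the others had 3.84 to 4.39. Summed erythroid and platelet markers were 0.89 CPM in WT DZ library 4 and 4.62 CPM in WT LZ library 5, and 0 in the other WT libraries of those zones.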

How the results depend on the processing

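The common effect called 0 genes under the other scalings, filters, read counts, thinning and the replicate block, 28 with DESeq2, 5 with limma voom and sample quality weights, and 0 to 5 on leaving out a library (5 without SykY317F DZ library 2, 1 without WT DZ library 5). The LZ effect called 54 genes in read counts, 43 with DESeq2, 1 with library size alone and 0 to 5 on leaving out a library; the DZ effect called 2 with DESeq2. Genes agreeing in both zones numbered 92 with voom, 5 after thinning (5 higher and 1 lower as medians by direction) and 21 to 51 on leaving out a library (51 without SykY317F DZ library 2). The replicate number as a block gave 21 agreeing genes, of which 11 were among the 39 (10 of the 18 higher and 1 of the 21 lower), a median of -0.165 for G2 and mitosis (0 of 37 at p under 0.05) and 7 S phase genes at p under 0.05. Same-numbered libraries of both genotypes in a zone correlated at -0.21 to 0.273 in their deviations, with 2 of 4 pairs above 0.1. Those across zones correlated at 0.142 to 0.356 (4 of 4 above 0.1, median 0.254, against -0.065 for other numbers). Same-numbered libraries of 1 genotype correlated between the zones at -0.522 to 0.269 (4 of 6 above 0.1, median 0.19, against 0.019 for other numbers). For those, the consensus correlation of duplicateCorrelation was -0.051. Of 14 libraries, 2 correlated best with their own number. The numbers did not meet 0.1 in every pair within a zone and were not taken as pairs. Whether same-numbered libraries share a mouse was not tested. The sign of the common log2 fold change turned for Syk (-0.003 with library size alone, -0.167 in read counts, -0.008 with numbers present in both zones), Blnk (0.001 in read counts), Ndufs4 (-0.518), E2f3 (-0.952), Cks2 (-0.497) and Herc1 (0.622) without the 4 libraries under 400000 UMIs, E2f3 (-0.228) and Herc1 (0.15) with depth as covariate, Cks2 (-0.02) and Herc1 (0.016) with voom weights, Herc1 (0.053) and Cd86 (0.036) with duplicateCorrelation, Setd1b (-0.73 with group means, -0.579 in read counts, -0.154 with the block, -0.054 with DESeq2), and Cd86 (0.055 with the block, 0.048 with numbers present in both zones, 0.211 thinned). On leaving out a library Cd86 ranged from -0.386 to 0.11, Cks2 from -0.101 to 0.619, E2f3 from -0.015 to 0.547, Herc1 from -0.29 to 0.04, Setd1b from -0.192 to 0.431 and Syk from -0.034 to 0.079. Without the 4 libraries under 400000 UMIs the fit compares the genotypes in the DZ alone. With all libraries the DZ values of Ndufs4, E2f3, Cks2 and Herc1 were -0.365, -0.834, -0.591 and 0.644. For the other settings the cause was not tested. The other 80 genes named by rule kept their sign under each alternative that could be computed. Agreement could not be computed without the 4 libraries under 400000 UMIs, since no SykY317F LZ library remained. A SykY317F LZ count of 0 allows up to 7.91 to 20 CPM.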
